A study of Mus musculus with 2 samples.

Results

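The collagen gene family was taken, by a rule on names alone, as every gene whose symbol is Col, a number, the letter a and a number, which gave 44 of the 32285 genes counted. The series compared 2 compositions of a cell-free scaffold, Gel100 and Gel50_CS50, by droplet single-cell RNA sequencing of the cells that had moved into them. Each scaffold filled a circular skull defect of 3.5 mm in female Balb/c mice of 6 weeks, with the periosteum removed, and was collected at week 1. Scaffolds of 5 mice were digested with an enzyme mixture, the cells were pooled, sorted for viability and loaded at about 10000 cells, so each composition is 1 library from 1 pool. The labels name the scaffolds only by these codes, whose meaning is not spelled out in them. With 1 library per scaffold there is no spread between replicates and no test was made. Ranges in parentheses are 95% intervals that cover counting error only.

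Collagens are matrix and membrane proteins whose chains wind into a triple helix. Fibrillar types such as I, III and V give connective tissue its tensile strength, type IV forms the mesh of basement membranes, type VI forms beaded filaments around cells, and FACIT collagens (fibril-associated collagens with interrupted triple helices) coat the surface of fibrils. In healing bone, mesenchymal cells lay down fibrillar collagens ahead of mineral, while vessels are wrapped in type IV collagen made by endothelial cells and by the mural cells (pericytes and smooth muscle) that surround them.

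Cells were put in classes by 12 non-collagen markers per class, so the classes were made without the family and rest on markers alone. Stromal cells (markers such as Pdgfra, Prrx1 and Lum) numbered 198 in Gel100 and 609 in Gel50_CS50, mural cells (Rgs5, Notch3, Cspg4) 16 and 35, endothelial cells (Cdh5, Kdr, Tie1) 26 and 47, and immune cells (Ptprc, Coro1a, Laptm5) 6841 and 6339. Every class held UMIs of all 12 of its own markers in both libraries. A UMI (unique molecular identifier) counts 1 captured transcript by a tag at its 3' end, so values are not scaled by gene length, and CPM is the UMI count per 1000000 UMIs of the class. Kept cells had a median of 12707 UMIs in Gel100 and 16509.5 in Gel50_CS50. The libraries shared 24 barcode sequences, of which 2 in Gel100 and 1 in Gel50_CS50 were stromal cells. Markers of osteoblasts were scarce in the stromal class: 3 of 6 had a UMI in Gel100 and 5 of 6 in Gel50_CS50, their summed levels were 5.61 and 16 CPM, and Bglap, which encodes osteocalcin, was at 0 in both.

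A few promoters are shown here because they belong to the most abundant stromal collagens (Col1a2, Col3a1), to a fibrillar member that was high in 1 stromal cluster and at or near 0 in another (Col11a1), and to the pair of type IV genes that overlap at their starts (Col4a1, Col4a2). Each run spans 250 bases before to 50 bases after the RefSeq start, 5' to 3' on the gene's strand, from GRCm38.p6, which is the assembly behind mm10. The windows lie at chr6:4505368-4505667 (Col1a2, plus strand), chr1:45311288-45311587 (Col3a1, plus strand), chr3:114030290-114030589 (Col11a1, plus strand), chr8:11312777-11313076 (Col4a1, minus strand) and chr8:11312555-11312854 (Col4a2, plus strand). Capitals mark CCAAT or TATAAA, read on either strand, in Col1a2, Col3a1 and Col11a1. In Col4a1 and Col4a2 they mark the 78 bases, chr8:11312777-11312854, that both windows hold as reverse complements.
Col1a2: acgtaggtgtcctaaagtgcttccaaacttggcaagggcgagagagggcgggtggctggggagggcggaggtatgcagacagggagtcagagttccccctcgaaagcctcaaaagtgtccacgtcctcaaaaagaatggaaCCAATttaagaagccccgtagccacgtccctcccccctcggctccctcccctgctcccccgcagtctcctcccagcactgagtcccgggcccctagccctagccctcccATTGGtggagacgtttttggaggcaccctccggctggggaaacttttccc
Col3a1: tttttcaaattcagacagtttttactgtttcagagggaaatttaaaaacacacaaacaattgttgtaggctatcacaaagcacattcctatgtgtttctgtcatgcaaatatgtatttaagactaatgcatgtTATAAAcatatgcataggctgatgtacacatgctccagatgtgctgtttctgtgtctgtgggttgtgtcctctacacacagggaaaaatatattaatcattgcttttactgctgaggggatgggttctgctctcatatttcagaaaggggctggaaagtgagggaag
Col11a1: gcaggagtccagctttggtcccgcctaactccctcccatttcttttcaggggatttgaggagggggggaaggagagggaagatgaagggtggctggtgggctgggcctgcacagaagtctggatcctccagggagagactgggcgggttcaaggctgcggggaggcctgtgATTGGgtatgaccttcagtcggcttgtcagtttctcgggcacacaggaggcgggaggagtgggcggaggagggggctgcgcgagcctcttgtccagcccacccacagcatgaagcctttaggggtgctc
Col4a1: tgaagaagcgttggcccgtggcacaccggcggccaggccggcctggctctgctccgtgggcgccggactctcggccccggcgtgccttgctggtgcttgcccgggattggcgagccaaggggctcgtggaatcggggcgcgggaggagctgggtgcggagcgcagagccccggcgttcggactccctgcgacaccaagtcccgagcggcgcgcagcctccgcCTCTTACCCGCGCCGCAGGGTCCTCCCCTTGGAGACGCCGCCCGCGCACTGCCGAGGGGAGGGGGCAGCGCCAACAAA
Col4a2: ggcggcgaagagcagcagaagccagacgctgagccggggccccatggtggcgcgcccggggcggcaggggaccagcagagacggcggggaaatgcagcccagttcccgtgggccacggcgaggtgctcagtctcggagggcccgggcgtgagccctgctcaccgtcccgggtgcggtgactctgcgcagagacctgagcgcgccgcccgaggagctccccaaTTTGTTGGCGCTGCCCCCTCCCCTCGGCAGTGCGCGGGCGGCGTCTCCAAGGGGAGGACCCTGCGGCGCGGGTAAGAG
Col1a2 held CCAAT at 2 places and no TATAAA, Col3a1 held TATAAA at 1 place and no CCAAT, and Col11a1, Col4a1 and Col4a2 held CCAAT at 1 place each. GC made up 61.0% of the Col1a2 window, 37.7% of that of Col3a1 and 74.0% of that of Col4a1. RefSeq windows were found for 35 of the 44 members, as 38 windows. CCAAT, on either strand, was in 34.2% of these windows and in 37.4% of all 32851 windows of the table, and TATAAA was in 13.2% and 13.6%. GGGCGG, on either strand, was in 60.5% of the members' windows and in 35.7% of all. These matches describe letters in a window and not sites of binding.

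Several members are neighbours in the genome (GENCODE vM21, mm10). Col4a1 (ENSMUSG00000031502, chr8:11198423-11312826, minus strand) and Col4a2 (ENSMUSG00000031503, chr8:11312805-11449287, plus strand) lie head to head and overlap by 22 bases at their starts. Col4a3 and Col4a4 on chromosome 1 lie head to head with 71 bases between them, and Col4a5 and Col4a6 on chromosome X with 1308. Col3a1 (ENSMUSG00000026043, chr1:45311538-45349706) and Col5a2 (chr1:45374321-45503282) lie tail to tail, 24614 bases apart. Col6a1 and Col6a2 share a strand on chromosome 10, as do Col6a4, Col6a5 and Col6a6 on chromosome 9. Exons of Col5a1 and Col15a1 overlap counted genes on the other strand, so their reads could also have been shared if counting ignored the strand.

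Collagens were a large part of the stromal transcriptome. Of all UMIs in stromal cells, 4.98% (4.97 to 4.99%) in Gel100 and 5.34% (5.33 to 5.35%) in Gel50_CS50 came from the 44 genes. The share was 1.42% (1.38 to 1.47%) and 2.59% (2.56 to 2.62%) in mural cells, and 0.764% (0.739 to 0.790%) and 0.703% (0.686 to 0.720%) in endothelial cells. In immune cells it was 0.0161% and 0.0324%. Single cells varied widely within a class. In the stromal class of Gel100 the lowest cell stood at 0.744%, the median at 4.96% and the highest at 10.6%, and in Gel50_CS50 these were 0.351%, 5.43% and 13.6%. The stromal medians of the libraries therefore lay close together within a broad spread over cells.

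Of the 44 members, 27 reached a mean of 20 CPM over both libraries in the stromal, mural or endothelial class and are called measured: 25 in stromal, 19 in mural and 10 in endothelial cells. In both libraries, 17 of the 27 were highest in stromal cells, 2 in mural cells and 3 in endothelial cells, and 5 changed place between libraries. Among all 8602 genes measured in a class, 21.0% were highest in stromal, 18.5% in mural and 28.4% in endothelial cells of both libraries. The plot of levels by class shows the 27 measured members.

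**Figure D1:**
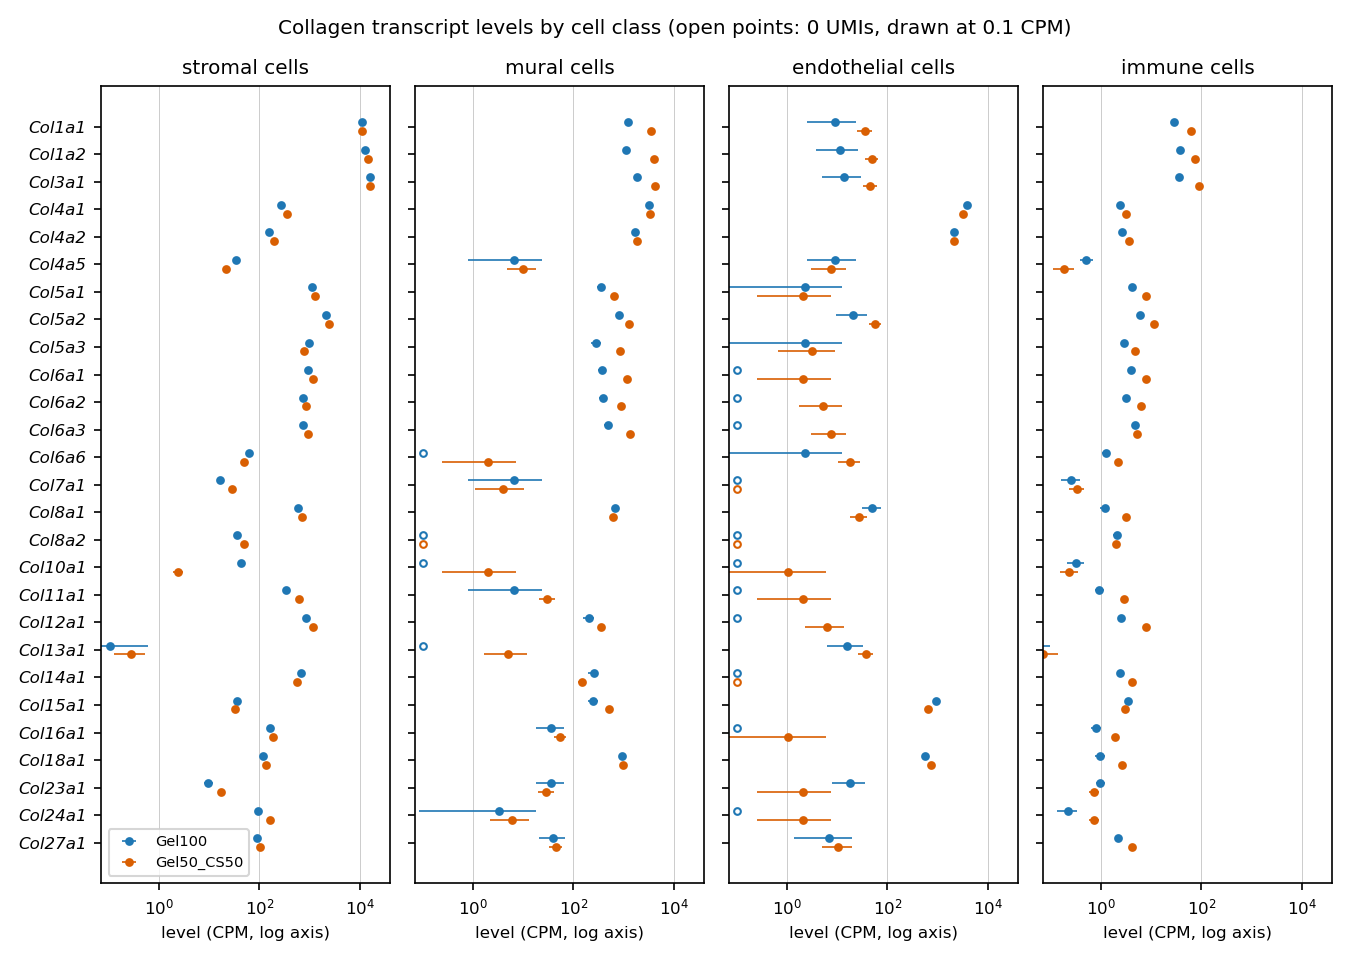
Level of each of the 27 measured collagen genes in 4 cell classes, in CPM on a log axis, with 1 point per library (blue Gel100, orange Gel50_CS50) and 95% counting intervals. Fibrillar genes reach over 10000 CPM in stromal cells, while Col4a1 and Col4a2 peak in endothelial and mural cells and all members are low in immune cells.

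The fibrillar genes for types I and III dominated the stromal class. Col1a1 (ENSMUSG00000001506, chr11:94936224-94953042), the main chain of bone and scar collagen, stood at 10916 CPM (10849 to 10982) in Gel100 and 10911 CPM (10875 to 10947) in Gel50_CS50. Its partner chain Col1a2 stood at 12608 and 14391 CPM, and Col3a1, the early fibril chain of healing tissue, at 15952 and 16270 CPM. Nearly every stromal cell carried them: Col1a1 had a UMI in 198 of 198 and 608 of 609 cells. These genes together made up 79.3% and 77.8% of stromal collagen UMIs. Stromal cells exceeded mural cells 8.88-fold (8.03 to 9.86) for Col1a1 in Gel100 and 3.07-fold (2.97 to 3.17) in Gel50_CS50, so the order of the classes was the same while the gap differed.

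The type V and XI genes, which set the diameter of fibrils, were lower. Col5a1 had 1140 and 1279 CPM in stromal cells of Gel100 and Gel50_CS50, and Col5a2 had 2161 and 2434 CPM. Col5a3 had 956 and 766 CPM there, against 285 and 862 CPM in mural cells, which put it highest in stromal cells in Gel100 and in mural cells in Gel50_CS50. Col11a1, best known from cartilage, had 346 and 605 CPM in stromal cells, 52.8-fold (14.6 to 436) and 20.3-fold (14.2 to 30.0) above mural cells, which held 2 and 30 UMIs. Col24a1, a minor fibrillar chain of bone, had 92.7 and 161 CPM, and Col27a1, a cartilage-associated fibrillar chain, 91.3 and 101 CPM.

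Type VI collagen was shared by stromal and mural cells. Col6a1 had 913 and 1164 CPM in stromal cells and 367 and 1158 CPM in mural cells, so the classes differed 2.49-fold (2.06 to 3.02) in Gel100 and could not be told apart in Gel50_CS50 (1.01-fold, 0.948 to 1.07). Col6a3 was higher in stromal cells in Gel100 (729 against 482 CPM) and in mural cells in Gel50_CS50 (913 against 1330 CPM). Col6a2 changed place in the same way, but its Gel50_CS50 ratio of 1.07 (0.997 to 1.14) spans equality. Col6a6, a further type VI chain, was a stromal gene at 61.8 and 49.8 CPM.

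The basement membrane genes had the opposite order. Col4a1 stood at 3846 and 3222 CPM in endothelial cells, 3195 and 3331 CPM in mural cells and 274 and 349 CPM in stromal cells of Gel100 and Gel50_CS50. Endothelial and mural cells differed 1.20-fold (1.11 to 1.30) in Gel100 and 1.03-fold (0.984 to 1.09) the other way in Gel50_CS50, so their order was not settled. Col4a2, the partner chain, stood at 2126 and 2098 CPM in endothelial, 1717 and 1810 CPM in mural and 154 and 197 CPM in stromal cells. Col4a5, on the X chromosome, was instead highest in stromal cells, at 34.2 and 21.3 CPM.

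Other network and anchoring genes were mostly stromal. Col8a1, a short-chain collagen of vessel walls, had 596 and 695 CPM in stromal and 682 and 610 CPM in mural cells, and its order changed between libraries. Col8a2, its partner, had 36.1 and 49.1 CPM in stromal cells and 0 UMIs in the mural and endothelial cells of both libraries. The stromal level was 3.67-fold and 16.5-fold the level that 3 counts would give in mural cells of Gel100 and Gel50_CS50. That floor is a convention and not a limit: the upper limits of mural Col8a2 were 12.1 and 3.67 CPM. Col7a1, the anchoring fibril chain below epithelia, had 16.5 and 28.9 CPM in stromal cells. Col10a1 is described with the scaffold comparison.

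Among FACIT collagens, Col12a1 and Col14a1, which lie on the surface of type I fibrils, were highest in stromal cells at 863 and 1192 CPM and at 671 and 565 CPM. Col16a1 had 164 and 186 CPM there. The multiplexins, heparan sulphate or chondroitin sulphate carriers of basement membrane zones, belonged to vessels. Col15a1 led in endothelial cells at 925 and 632 CPM, followed by mural cells at 249 and 507 CPM, and Col18a1, the source of endostatin, led in mural cells at 921 and 987 CPM, followed by endothelial cells at 572 and 740 CPM. Of the transmembrane members, Col13a1 led in endothelial cells at 15.8 and 36.6 CPM from 7 and 35 UMIs, and Col23a1 in mural cells at 36.0 and 28.8 CPM from 11 and 29 UMIs. These counts rested on few cells: 3 of 26 and 14 of 47 endothelial cells held Col13a1, and 4 of 16 and 10 of 35 mural cells held Col23a1.

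The remaining 17 members were not measured in any class. Col22a1 had 0 UMIs in stromal cells of both libraries, and Col19a1 had 0 and 2. Cartilage genes stayed low: Col2a1 had 131 and 68 stromal UMIs, of which 93 and 21 came from 1 cell, Col9a1 had 5 and 45, Col9a2 6 and 34, and Col11a2 86 and 317. Col9a3 had 131 and 408, but it overlaps exons of Tcfl5 on the other strand, and the sources used here do not say whether counting used the strand. Col6a5 had 207 and 144 stromal UMIs, 96 and 20 of them from 1 cell and 174 and 60 from 3 cells. The other basement membrane chains were scarce, with Col4a3 at 1 and 5, Col4a4 at 11 and 28 and Col4a6 at 48 and 71 stromal UMIs. Of the rest, stromal cells held 4 and 12 UMIs of Col6a4, 5 and 13 of Col17a1, 45 and 204 of Col20a1, 14 and 44 of Col25a1, 45 and 62 of Col26a1 and 10 and 66 of Col28a1.

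The make-up of collagen transcripts differed sharply between classes. Fibrillar genes gave 88.9% and 87.9% of collagen UMIs in stromal cells of Gel100 and Gel50_CS50, and basement membrane genes 0.941% and 1.07%. In endothelial cells basement membrane genes gave 78.3% and 75.8% and multiplexins 19.6% and 19.5%. With cells classed by clusters, which put 81 and 109 cells in the endothelial class, the basement membrane part was 41.8% and 38.3%. By the marker gate, that class held 73 endothelial, 25 stromal, 12 immune and 80 ungated cells over both libraries, at a median of 2567 UMIs. The part of the added cells in this lower value was not tested. Mural cells lay between, with 39.7% and 56.5% fibrillar and 34.6% and 19.9% basement membrane UMIs, and were the class whose make-up moved most between the libraries among these 3.

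**Figure D2:**
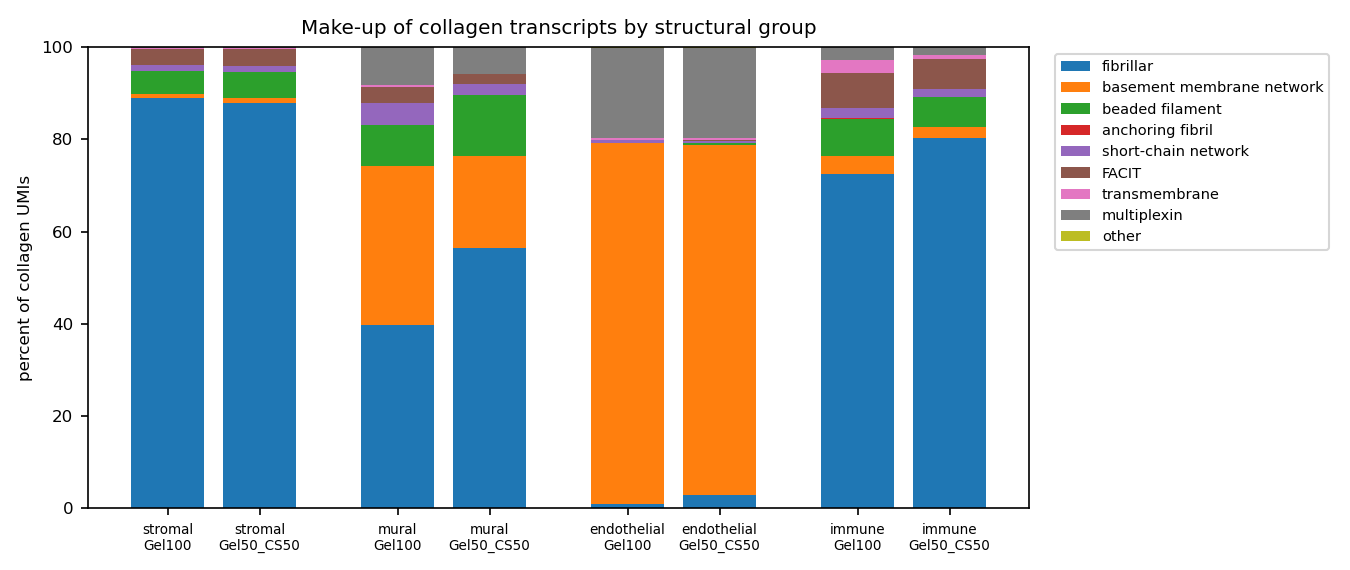
Percent of collagen UMIs that belong to each structural group of the family, as 1 stacked bar per class and library. Stromal bars are 88.9% and 87.9% fibrillar, endothelial bars 78.3% and 75.8% basement membrane (41.8% and 38.3% with cells classed by clusters), and the fibrillar part of the mural bar is 39.7% in Gel100 and 56.5% in Gel50_CS50.

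Between scaffolds, most stromal collagen levels lay close together. Of the 25 members measured in stromal cells, 3 were more than 1.5-fold higher in Gel50_CS50 and 2 more than 1.5-fold lower, against 1.48% and 2.49% of all 6911 genes measured there. The median log2 ratio of Gel50_CS50 over Gel100 was 0.19 for the members and -0.02 for all genes, and 18 of the 25 ratios were above 0. The other 20 members had log2 ratios between -0.32 (Col5a3) and 0.47 (Col12a1).

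Col11a1 (ENSMUSG00000027966, chr3:114030540-114220718) stood at 346 CPM (334 to 358) in Gel100 and 605 CPM (596 to 613) in Gel50_CS50, a log2 ratio of 0.81 (0.75 to 0.86). Col24a1 stood at 92.7 (86.6 to 99.0) and 161 CPM (157 to 166), a log2 ratio of 0.80 (0.70 to 0.90), and Col7a1 at 16.5 (14.0 to 19.3) and 28.9 CPM (27.1 to 30.8), a log2 ratio of 0.81 (0.56 to 1.06). In each the Gel50_CS50 library was the higher and the counting intervals of the levels did not overlap. At this depth the same held for members within 1.5-fold, such as Col12a1 (844 to 882 and 1180 to 1203 CPM). It also held for Col14a1, which was lower in Gel50_CS50 (655 to 688 and 557 to 573 CPM). The share of all genes with separate intervals was not counted. The size changed with the processing. With both libraries weighted to the same stromal clusters, the log2 ratio was 0.46 for Col11a1, 0.50 for Col7a1 and 0.68 for Col24a1, and with cells thinned to 3000 UMIs it was 0.55, 0.20 and 0.52.

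Of the members more than 1.5-fold lower in Gel50_CS50, Col10a1 leaned on few cells, while Col4a5 was spread over more. Col10a1 (ENSMUSG00000039462, chr10:34389981-34397085), the network collagen of hypertrophic cartilage, stood at 43.4 CPM (39.3 to 47.8) in Gel100 and 2.36 CPM (1.87 to 2.95) in Gel50_CS50, a log2 ratio of -4.20 (-4.57 to -3.84). Of its 410 UMIs in Gel100, 180, 132 and 75 came from 3 cells, and only 11 of 198 stromal cells had any. Without the 3 highest cells of each library the log2 ratio was -1.39. Of 8 bone and cartilage genes counted in the 3 Gel100 cells, Ibsp, Sp7, Matn1, Comp and Hapln1 had 0 UMIs, and Sox9, Acan and Alpl had at most 1 per cell. In the 3 highest Gel50_CS50 cells Acan had 0, 3 and 5 UMIs and Alpl 0, 0 and 2. Col10a1 also overlaps exons of Nt5dc1 on the other strand, which had 34.8 and 36.0 CPM. Col4a5 stood at 34.2 CPM (30.5 to 38.1) and 21.3 CPM (19.7 to 22.9), a log2 ratio of -0.69 (-0.88 to -0.49), which was -0.31 without the 3 highest cells and -0.55 without the shared barcodes. It had a UMI in 75 of 198 and 203 of 609 stromal cells, and 3 cells held 31.3% and 8.99% of its UMIs.

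The share of stromal cells with a UMI was compared after thinning each cell to 3000 UMIs, which left out 13 and 6 shallower stromal cells. Col11a1 was then found in 34.1% (27.3 to 41.4%) of stromal cells in Gel100 and 46.4% (42.4 to 50.5%) in Gel50_CS50, and in 44.9% and 58.8% unthinned. Col4a1 was found in 31.9% and 34.3%, and Col14a1 in 68.1% and 58.4%. The same thinned shares in immune cells were 0.228% and 0.736% for Col11a1, 0.719% and 0.965% for Col4a1, and 0.561% and 1.01% for Col14a1. Median depths were 48539 and 51353 UMIs in stromal and 13353 and 15405 in immune cells.

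In mural cells, fibrillar and type VI genes were higher in the Gel50_CS50 library, while Col4a1, Col4a2 and Col18a1 lay close to a log2 ratio of 0. Of 19 measured members, 12 were more than 1.5-fold higher in Gel50_CS50 and 1 (Col14a1, log2 ratio -0.78) more than 1.5-fold lower. Of all 6887 genes measured in these 16 and 35 cells, 13.4% were higher and 15.8% lower by that rule. Col1a2 stood at 1094 CPM in Gel100 and 4051 CPM in Gel50_CS50 (log2 ratio 1.89, 1.73 to 2.05), Col1a1 at 1229 and 3557 CPM (1.53, 1.38 to 1.69), and Col3a1 at 1819 and 4195 CPM (1.21, 1.08 to 1.34). Col6a1 stood at 367 and 1158 CPM (1.66, 1.38 to 1.95), and Col5a3 at 285 and 862 CPM (1.60, 1.28 to 1.93). Col4a1 had a log2 ratio of 0.06 (-0.04 to 0.16), Col4a2 of 0.08 (-0.06 to 0.22) and Col18a1 of 0.10 (-0.09 to 0.30). The median log2 ratio was 0.80 for the members and -0.03 for all genes. Col16a1 (11 and 55 UMIs) was among the higher members, but the interval of its log2 ratio spans 0 (0.60, -0.35 to 1.69). In Gel100, 3 cells held 67 of the 77 Col14a1 UMIs and 222 of the 375 Col1a1 UMIs. In Gel50_CS50, 3 cells held 83 of 148 and 1473 of 3576. Of the 13 members past 1.5-fold, direction turned for Col14a1 with each cell weighted equally (0.17), for Col12a1 after thinning (-0.26) and for Col16a1 under a stricter gate (-0.48). Over all 19, 15 kept their direction with equal weights 16 after thinning and 16 under the stricter gate.

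Stromal markers moved with this difference. A mural cell held a mean of 3.62 of the 12 stromal markers in Gel100 and 5.94 in Gel50_CS50, and the 12 markers summed to 1435 and 1810 CPM, with Pdgfra and Islr at 0 in Gel100 and none at 0 in Gel50_CS50. Their part in the result was not tested. Under a stricter gate, which kept 10 and 19 mural cells, the log2 ratio was 0.87 for Col1a1, 0.73 for Col3a1 and 1.24 for Col6a1. Within the class, Col1a1 ran from 0 through a median of 371 to 7242 CPM over cells in Gel100 and from 0 through 1045 to 12416 CPM in Gel50_CS50, so the ranges over cells overlapped.

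**Figure D3:**
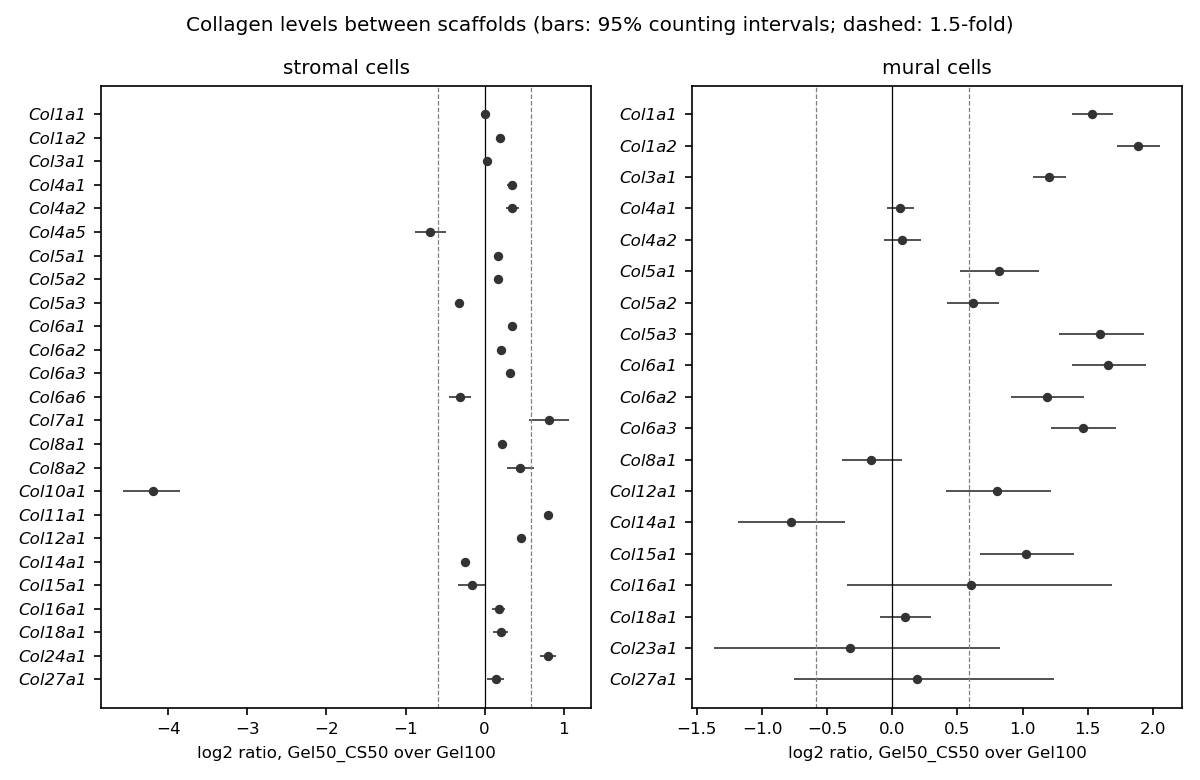
Log2 ratio of Gel50_CS50 over Gel100 for each collagen gene measured in stromal cells (left) and mural cells (right), with 95% counting intervals as bars and dashed lines at 1.5-fold. Most stromal points lie near 0 with Col10a1 far to the left at -4.20, while mural Col1a2 reaches 1.89 and mural Col4a1 and Col4a2 lie near 0.

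In endothelial cells the 4 abundant genes lay within 1.5-fold and the ratios past 1.5-fold came from small counts. Of 10 measured members, 5 were more than 1.5-fold higher in Gel50_CS50 and 1 lower, against 10.4% and 15.6% of all 6881 genes measured in these 26 and 47 cells. Col4a1 had a log2 ratio of -0.26 (-0.34 to -0.17), Col4a2 of -0.02 (-0.13 to 0.09), Col15a1 of -0.55 (-0.73 to -0.37) and Col18a1 of 0.37 (0.16 to 0.58). The higher members were Col1a1 (4 and 34 UMIs), Col1a2 (5 and 47), Col3a1 (6 and 43), Col5a2 (9 and 55) and Col13a1 (7 and 35). Col1a1, Col1a2 and Col3a1 were also higher in immune cells of the same library, and in both libraries their endothelial level lay below the immune one (Col1a1 9.05 and 35.6 CPM against 28.0 and 61.9, Col1a2 11.3 and 49.2 against 37.1 and 75.9, Col3a1 13.6 and 45 against 35.0 and 89.6). These levels were not above background. With the immune level subtracted, 2 members (Col5a2 and Col13a1) were more than 1.5-fold higher and 1 (Col8a1) lower. Stromal markers in endothelial cells summed to 83.7 CPM in Gel100 and 76.3 CPM in Gel50_CS50, with 7 and 10 of 12 present and Twist2 at 0 in both. Col8a1 was the lower member (22 and 26 UMIs), and its direction turned when its highest cell was left out of each library (log2 ratio 0.70). Col13a1 turned to -0.91 after thinning, and Col3a1 and Col5a2 turned to -0.50 and -0.45 when cells were classed by clusters. The endothelial class by clusters also held 25 gated stromal and 80 ungated cells.

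Stromal collagen genes were unevenly spread over groups of stromal cells. Clustering of the stromal class with all collagen genes left out gave 7 clusters, of which 5 had at least 20 cells in each library. For 23 of the 25 measured members the cluster with the highest level was the same in both libraries, with Col16a1 and Col24a1 as the exceptions. The clusters were made from both libraries together. How often all genes had the same highest cluster in both libraries, or were highest in a given cluster, was not counted. Clusters are named by number and leading non-collagen genes, and no cluster was given a cell type.

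Cluster 0 (Ttr, Lrrc7, Piezo2; 56 and 183 cells) was highest for 11 members in both libraries. They included Col10a1, with 94.4% of its Gel100 stromal UMIs in 3 cells, and all 3 measured basement membrane genes. Col4a1 stood at 1124 CPM (1080 to 1169) and 1052 CPM (1031 to 1073) in cluster 0 of Gel100 and Gel50_CS50. In clusters 1 to 4 it lay between 1.55 and 23.3 CPM in Gel100 and between 27.4 and 129 CPM in Gel50_CS50, so cluster 0 held most stromal Col4a1. Col4a2 followed it, with 639 and 588 CPM in cluster 0 and at most 4.24 and 72.0 CPM in clusters 1 to 4. Col11a1 stood at 1150 and 1442 CPM in cluster 0, 420 and 726 CPM in cluster 2 and 0 and 0.617 CPM in cluster 3. Col8a1 stood at 895 and 1183 CPM in cluster 0 and 13.8 and 43.2 CPM in cluster 3. Acta2, the smooth muscle actin of contractile fibroblasts, stood at 617 and 954 CPM in cluster 0 and at 823 and 810 CPM in cluster 2. In cluster 4, which had the lowest collagen share of the 5, Acta2 stood at 645 and 382 CPM. It stood at 273 and 168 CPM in cluster 1 and at 4.24 and 8.63 CPM in cluster 3.

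Cluster 2 (Sox6, Spon1, Pcdh15; 26 and 135 cells) was highest for 8 members: Col1a1, Col1a2, Col5a1, Col5a2, Col6a1, Col6a2, Col6a3 and Col27a1. Col1a1 stood at 15223 and 13148 CPM there, and the lowest of the clusters, cluster 4, at 6779 and 7790 CPM. Cluster 2 was 13.1% (8.76 to 18.6%) of stromal cells in Gel100 and 22.2% (18.9 to 25.7%) in Gel50_CS50. Cluster 3 (Pi16, Smpd3, C3; 24 and 78 cells) was highest for Col3a1 (24876 and 24404 CPM), Col14a1 (2128 and 1811 CPM) and Col6a6 (200.4 and 199 CPM). Cluster 1 (Adamts19, Dkk2; 65 and 133 cells) was highest for Col5a3 alone, at 1759 and 1362 CPM against 149 and 284 CPM in cluster 0. Cluster 1 was 32.8% (26.3 to 39.8%) of stromal cells in Gel100 and 21.8% (18.6 to 25.3%) in Gel50_CS50. Clusters 0, 3 and 4 were 28.3%, 12.1% and 10.1% in Gel100 and 30.0%, 12.8% and 9.85% in Gel50_CS50.

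Cluster 4 (Mdga2, Fabp4, Ereg, with Cxcl9, Cxcl5 and Ccl2 among its 10 leading genes; 20 and 60 cells) had the lowest collagen share of the 5, at 2.78% and 3.99% of UMIs. The other 4 clusters lay between 5.09% and 5.92% in Gel100 and between 5.40% and 5.76% in Gel50_CS50. Col24a1 was highest in cluster 2 in Gel100 (200.2 CPM) and in cluster 4 in Gel50_CS50 (337 CPM), and its cluster 4 level in Gel100 was 146 CPM. Within cluster 1 it stood at 76.2 and 177 CPM, and within cluster 3 at 85.9 and 46.9 CPM, so its scaffold difference did not have 1 direction in all clusters.

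**Figure D4:**
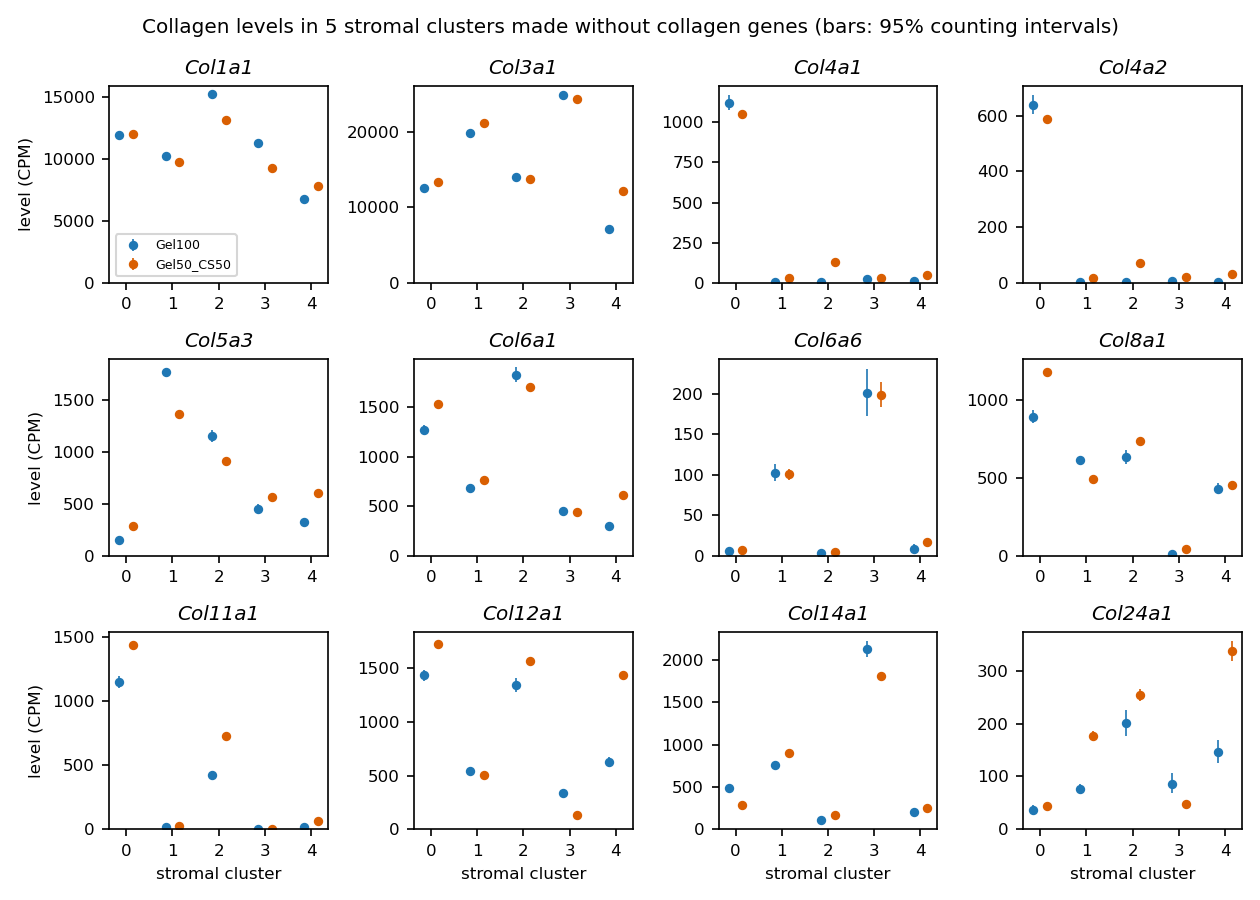
Level in CPM (linear axes from 0) of 12 collagen genes in stromal clusters 0 to 4, with 1 point per library and 95% counting intervals. Col4a1, Col4a2 and Col11a1 peak in cluster 0, Col5a3 in cluster 1, Col1a1 and Col6a1 in cluster 2, and Col3a1, Col6a6 and Col14a1 in cluster 3, in both libraries.

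For chains that assemble together, the ratio of UMIs was compared across classes. A ratio between genes also carries how well each 3' end was captured, so only its change across classes is read here. Col4a2 over Col4a1 was 0.564 (0.528 to 0.601) and 0.564 (0.547 to 0.582) in stromal, 0.537 and 0.544 in mural, and 0.553 (0.510 to 0.599) and 0.651 (0.615 to 0.689) in endothelial cells of Gel100 and Gel50_CS50, while Col4a1 itself was 14.0-fold and 9.24-fold higher in endothelial than in stromal cells. Col5a2 over Col5a1 was 1.90 and 1.90 in stromal cells and 2.28 and 1.99 in mural cells. Col1a2 over Col1a1 was 1.16 and 1.32 in stromal cells, and 0.891 and 1.14 in mural cells. Col8a1 over Col8a2 was 16.5 and 14.1 in stromal cells, and Col4a5 over Col4a6 was 6.73 and 9.87. Both are given for stromal cells only, so no change across classes is read from them. Col5a3 over Col5a1 went opposite ways, from 0.839 to 0.599 in stromal cells and from 0.798 to 1.37 in mural cells between Gel100 and Gel50_CS50.

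Most genes of the machinery that makes and cross-links collagen lay within 1.5-fold in stromal cells. Of 32 biosynthesis and crosslinking genes, 28 were measured, 0 were more than 1.5-fold higher in Gel50_CS50 and 1 was lower: Tll1, a procollagen protease, at 142 and 65.6 CPM (log2 ratio -1.11, -1.21 to -1.01). Serpinh1, the collagen chaperone of the endoplasmic reticulum, stood at 1498 and 1662 CPM, Lox, which oxidises lysines for cross-links, at 585 and 698 CPM, and Plod2, a lysyl hydroxylase, at 233 and 253 CPM. The prolyl hydroxylase subunits P4ha1 and P4ha2 stood at 300 and 276 CPM and at 149 and 127 CPM. All genes gave 1.48% higher and 2.49% lower in this class. In mural cells 24 were measured, 6 were higher (Plod1, P3h1, Fkbp14, Pcolce, Adamts2 and Loxl3) and 2 lower (Plod2 and P3h2), against 13.4% and 15.8% of all genes. In endothelial cells 14 were measured and 2 were higher (P3h2 and Tll1), against 10.4% of all genes, so the count was near the general share. Adamts2, which trims procollagen, stood at 321 and 514 CPM in mural cells, and P3h2, a prolyl 3-hydroxylase, at 86.0 and 172 CPM in endothelial cells.

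Of 10 collagen receptor genes, 5 were measured in stromal cells and 2 were higher in Gel50_CS50, the integrin chains Itga1 (18.6 and 33.0 CPM) and Itga11 (33.6 and 52.3 CPM), against 1.48% of all genes. Ddr2, the fibrillar collagen receptor kinase, stood at 303 and 275 CPM. None of 5 was past 1.5-fold in mural cells, where 13.4% of all genes were higher and 15.8% lower. Of 3 in endothelial cells, Itga2 was higher, at 63.3 and 101 CPM, against 10.4% of all genes.

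Immune cells gave the background. Over the 25 members measured in stromal cells, the level in immune cells was a median of 0.439% of the stromal level in Gel100 and 0.736% in Gel50_CS50. Col1a1, Col1a2 and Col3a1 were the 3 members measured in immune cells, and all 3 were more than 1.5-fold higher in Gel50_CS50, against 2.81% of all 6412 genes measured there, with 5.04% lower. Col3a1 stood at 35.0 and 89.6 CPM, Col1a2 at 37.1 and 75.9 CPM and Col1a1 at 28.0 and 61.9 CPM. Stromal cells held 8.97% and 22.9% of all UMIs of the kept cells, and stromal markers in immune cells summed to 56.0 and 84.8 CPM with all 12 present. The part of free RNA and of mixed droplets was not tested. Col1a1 was higher in the Gel50_CS50 library in each immune class, at 30.9 and 41.9 CPM in macrophages, 25.5 and 82.3 CPM in neutrophils, 11.7 and 44.0 CPM in T and NK cells and 11.4 and 28.5 CPM in dendritic cells. After thinning to 3000 UMIs, 5.39% of immune cells in Gel100 and 14.4% in Gel50_CS50 had a Col1a1 UMI (19.6% and 46.0% unthinned), with 1141 and 225 shallower cells left out. The highest immune-gated cells held 3.83% and 3.78% collagen UMIs, and 3 cells held 27.9% of the Col1a1 UMIs of the class in Gel100 and 19.9% in Gel50_CS50.

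A few members did not follow that background. Col4a2 stood at 16.1 and 21.5 CPM in neutrophils and 2.43 and 2.14 CPM in macrophages, while Col4a1 stood at 3.0 and 4.42 CPM in neutrophils. The ratio of Col4a2 over Col4a1 there was 5.38 (2.50 to 13.2; 43 and 8 UMIs) in Gel100 and 4.85 (3.19 to 7.64; 131 and 27 UMIs) in Gel50_CS50, above the ratios in stromal, mural and endothelial cells. Col4a2 overlaps exons of Gm15419 on the other strand, which had 6 and 30 UMIs in neutrophils, 3 and 14 in stromal, 0 and 6 in mural and 3 and 9 in endothelial cells. The use of strand in counting is not stated in these sources, and whether these genes shared reads was not tested.

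Col17a1, a hemidesmosome collagen of epithelia, stood higher in dendritic-gated cells than in the other immune classes, at 25.9 and 25.3 CPM against 0.289 and 0.273 CPM in macrophages, 1.88 and 0.655 CPM in neutrophils, 0.930 and 1.46 CPM in T and NK cells and 0.529 and 0.394 CPM in stromal cells. In immune cells with at least 2 UMIs of Siglech, a gene of plasmacytoid dendritic cells chosen here after the values were seen, Col17a1 stood at 34.5 CPM (30.6 to 38.8) in Gel100 and 31.9 CPM (27.2 to 37.1) in Gel50_CS50. Those cells held 280 of the 304 immune Col17a1 UMIs in Gel100 and 167 of 189 in Gel50_CS50, while dendritic-gated cells held 93 and 71. It had a UMI in 157 of those 460 cells and 90 of those 279 cells, against 23 of 6381 and 20 of 6060 other immune cells, at median depths of 18312 and 18530 UMIs against 12743 and 15040. Col8a2 also stood higher there, at 9.37 and 17.0 CPM against 1.32 and 1.19 CPM in other immune cells, and so did Col15a1, at 7.64 and 7.44 CPM against 3.09 and 2.76 CPM. Col20a1 had 9.74 and 10.3 CPM against 2.80 and 3.75 CPM, but it overlaps BX649560.1 on its own strand and its counts are uncertain. Col19a1 went the other way, at 0.123 and 0.191 CPM against 1.87 and 1.92 CPM. These levels came from 1 UMI in each library against 159 and 188 UMIs. Of its immune UMIs, 3 cells held 57 of 160 in Gel100 and 27 of 189 in Gel50_CS50.

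**Figure D5:**
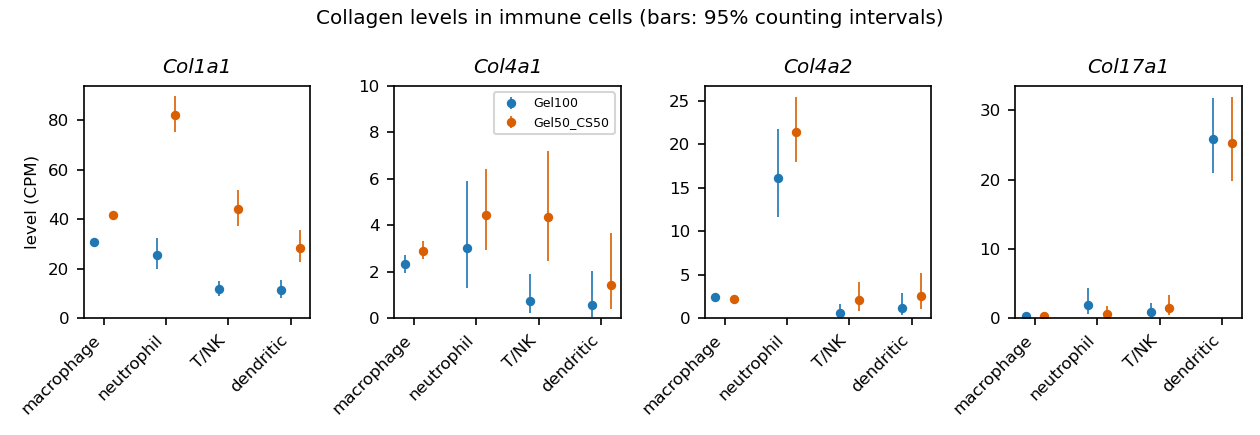
Level in CPM (linear axes from 0) of Col1a1, Col4a1, Col4a2 and Col17a1 in 4 immune classes, with 1 point per library and 95% counting intervals. Col1a1 is higher in Gel50_CS50 in each class, Col4a2 is at 16.1 and 21.5 CPM in neutrophils, and Col17a1 is at 25.9 and 25.3 CPM in dendritic-gated cells.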

How the data were processed

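Raw UMI counts per gene and barcode were deposited as whole numbers. Per the file headers the authors made them with Cell Ranger 6.0.2, and per the submitters' processing notes with build mm10. The sources used here name neither the annotation release nor a strand setting. The Gel100 matrix held 108847835 UMIs in 7845 barcodes and the Gel50_CS50 matrix 150311308 in 7515. Barcodes with at least 500 UMIs, at least 200 genes and under 20% mitochondrial UMIs were kept, and Scrublet (scanpy 1.11.5) removed 179 and 192 as doublets, which left 7601 and 7206 cells. A cell took the class with the most of its 12 markers detected, given at least 4 and a lead of 2. Otherwise it stayed ungated. These limits were set after the data were seen. Immune cells were split by at least 3 subclass markers. Counts were summed per class and library and scaled to CPM. Intervals are exact Poisson, Clopper-Pearson or conditional binomial ones. No test was run, since cells are not replicates. Stromal clusters came from leidenalg 0.10.2 at resolution 0.4 with collagens left out. Ratio steps were tested on counts simulated with counting error only, which cannot show how they behave with spread between cells or pools. Named members were those with a mean of 20 CPM in a class, and other members were named with their counts. Named pathway genes were those past 1.5-fold plus Serpinh1, P4ha1, P4ha2, Plod2, Lox, Ddr2 and Itga11. Members, lists and markers were chosen with earlier results of these data known. Protein sequences were not analysed here.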

Additional observations from a re-analysis of the deposited data

How the results depend on the processing

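Levels between classes rest on many UMIs, but mural and endothelial values rest on 16 to 47 cells per library, and all intervals leave out the spread between mice and pools. No paired analysis was possible because each scaffold had 1 library and no test was run. Of the 5 stromal members past 1.5-fold, 5 stayed so under clusters in place of the gate, 4 under the stricter gate, 3 with equal cell weights, 3 with the same cluster weights and 2 after thinning. Of the 13 mural ones, 12 did under clusters, 10 under the stricter gate, 9 with equal cell weights and 7 after thinning. Of the 6 endothelial ones, 6 did under the stricter gate, 2 under clusters and 2 with equal cell weights, and after thinning 0 of the 2 that could be compared did. The cause of the shifts below was not tested, unless a smaller set of cells or genes is named. Counts are of members past 1.5-fold unless stated, and log2 ratios are Gel50_CS50 over Gel100.

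With clusters in place of the gate, endothelial counts were 3 higher and 2 lower, Col3a1 and Col5a2 turned there to -0.50 and -0.45, 1 member was highest in endothelial cells in both libraries, basement membrane genes gave 41.8% and 38.3% of endothelial collagen UMIs, fibrillar genes 89.2% and 88.0% of stromal ones, and Col1a2 over Col1a1 was 1.33 in stromal cells of Gel50_CS50. With each cell weighted equally, 1 stromal member was higher, 0 mural members were lower and 3 endothelial members were higher, Col14a1 turned to 0.17 in mural and Col8a1 to 0.47 in endothelial cells, and the log2 ratio of the collagen share was 0.12 in stromal, 0.51 in mural and 0.035 in endothelial cells. The fibrillar share was then 88.2% in stromal cells of Gel100, the endothelial basement membrane share 81.6% in Gel100, Col1a2 over Col1a1 1.05 and 1.30 in stromal and Col4a2 over Col4a1 0.506 and 0.720 in endothelial cells.

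Thinned to 3000 UMIs, 0 stromal members were higher and 2 endothelial members lower, Col12a1 turned to -0.26 in mural cells and Col8a1 and Col13a1 to 0.49 and -0.91 in endothelial cells, and the collagen share ratio was 0.45 in mural and 0.11 in endothelial cells. Fibrillar shares were 88.3% and 87.8% in stromal cells, the endothelial basement membrane share 74.4% in Gel50_CS50, and Col1a2 over Col1a1 1.06 and 1.30. Unthinned, 61.9% of Gel50_CS50 stromal cells held Col4a1. Under the stricter gate, 1 stromal and 3 mural members were lower, Col16a1 turned to -0.48 in mural cells, 1 member was highest in mural cells, the collagen share ratio was 0.063 in stromal and 0.56 in mural cells, and the stromal fibrillar share of Gel50_CS50 was 87.9%. With the immune level subtracted, 2 endothelial members were higher and the basement membrane share was 77.9% in Gel50_CS50.

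A minimum of 50 CPM left 0 stromal members lower, 0 endothelial members higher or lower and 1 member highest in mural cells. No minimum gave 9 higher and 6 lower in stromal, 23 and 4 in mural and 17 and 3 in endothelial cells, with 28 highest in stromal cells. Without a minimum, members with very few UMIs entered the counts, such as Col6a1 with 0 and 2 in endothelial cells. The shares of all genes were not counted at these minimums, so no trait of the members is read from these counts. The last alternatives were chosen after seeing the data. Same stromal cluster weights gave 1 stromal member higher, a collagen share ratio of 0.071, fibrillar shares of 88.3% and 88.1% and Col1a2 over Col1a1 of 1.14 in Gel100. Without the shared barcodes, 1 stromal member was lower and the collagen share ratio was 0.073. With the top cells of the gene left out, 0 stromal and 0 endothelial members at or above 20 CPM were lower, since Col10a1 (-1.39) then fell under that minimum, and Col8a1 turned to 0.70 in endothelial cells.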

Other observations

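Cells that passed no gate, 520 in Gel100 and 176 in Gel50_CS50, held 2.80% and 3.91% collagen UMIs, at median depths of 682 and 2146 UMIs. Stromal cluster 6 (Chrm3, Penk, Kcnb2; 3 and 7 cells) held 2.06% and 2.95% collagen UMIs, below clusters 0 to 3 in both libraries. All 3 of its Gel100 cells held Col6a5, with 174 of the 207 stromal UMIs of that gene. In Gel50_CS50 it held 22 of 144, in 4 of 7 cells, while cluster 3 held 67. Stromal cluster 5 (4 and 13 cells) had the lowest median depth of the stromal clusters, 7090.5 and 6643 UMIs, and held 5.72% and 5.15%. The gate was narrowly passed by 7 stromal cells in Gel100 and 4 in Gel50_CS50.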
